A study of Mus musculus with 2 samples.

Results

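The genes examined here encode subunits of the nucleosome remodelling and deacetylase (NuRD) complex. They were chosen by name, as 10 symbols (*Chd4*, *Mbd3*, *Mta1*, *Mta2*, *Mta3*, *Hdac1*, *Hdac2*, *Rbbp4*, *Rbbp7* and *Gatad2b*) of the 21935 in the expression tables, and all 10 were present. Polyadenylated RNA was sequenced from R1, a line of mouse embryonic stem (ES) cells, after 72 h of culture with LIF left out. For LIF withdrawal the methods of the study name dishes coated with gelatin or dishes of low attachment. LIF is the cytokine that keeps these cells self-renewing. In 1 library the cells carried a lentiviral short hairpin RNA (shRNA) against *Kdm5b*, which encodes a demethylase of lysine 4 of histone H3 (shKdm5b ES cells), and in the other a control shRNA against luciferase (shLuc ES cells). With 1 library per condition there is no replicate check: no p-value for the conditions can be given, and library and condition cannot be told apart. Before differentiation the stem cells had been grown on irradiated mouse fibroblasts.

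NuRD joins 2 enzymatic activities in 1 assembly. CHD4, an ATP-dependent helicase of the Mi-2 family, moves nucleosomes, and HDAC1 and HDAC2 remove acetyl groups from histone tails. MTA1, MTA2 and MTA3 form the scaffold that holds the deacetylases, RBBP4 and RBBP7 are WD40 proteins that bind histones, and GATAD2A or GATAD2B connects the deacetylase part to CHD4 through MBD2 or MBD3. Most of these positions are filled by closely related paralogs, and complexes with MBD2 and with MBD3 are distinct. In ES cells NuRD dampens transcription of many active and developmental genes, and cells without *Mbd3* commit poorly to lineages when LIF is removed. KDM5B has been found together with NuRD in other cells.

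The promoter windows of the members with the largest differences, and of *Rbbp4* as the paralog of *Rbbp7*, are shown because paralogs of these families differed between the libraries. RefSeq promoters of GRCm38.p6 matched 8 of the 10 members. The 250 bases before the start site are given 5′ to 3′ on the strand of the gene, at chr6:125095731-125095980 (plus) for *Chd4*, chr10:80399532-80399781 (minus) for *Mbd3*, chr10:36974294-36974543 (plus) for *Hdac2*, chr4:129335371-129335620 (minus) for *Rbbp4* and chrX:162760122-162760371 (plus) for *Rbbp7*. Capitals mark the GC box (GGGCGG or CCGCCC on the other strand) and the CCAAT box (CCAAT or ATTGG on the other strand).
Chd4: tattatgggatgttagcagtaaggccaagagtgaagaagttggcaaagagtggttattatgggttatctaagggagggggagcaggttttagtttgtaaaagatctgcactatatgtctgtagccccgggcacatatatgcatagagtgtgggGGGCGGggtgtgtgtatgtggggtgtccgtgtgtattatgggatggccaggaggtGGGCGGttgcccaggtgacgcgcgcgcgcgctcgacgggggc
Mbd3: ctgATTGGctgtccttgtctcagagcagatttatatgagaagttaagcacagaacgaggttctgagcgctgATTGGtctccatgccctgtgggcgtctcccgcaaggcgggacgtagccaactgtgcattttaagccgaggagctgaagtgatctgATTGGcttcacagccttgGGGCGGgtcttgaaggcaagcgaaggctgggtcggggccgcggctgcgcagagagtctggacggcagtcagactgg
Hdac2: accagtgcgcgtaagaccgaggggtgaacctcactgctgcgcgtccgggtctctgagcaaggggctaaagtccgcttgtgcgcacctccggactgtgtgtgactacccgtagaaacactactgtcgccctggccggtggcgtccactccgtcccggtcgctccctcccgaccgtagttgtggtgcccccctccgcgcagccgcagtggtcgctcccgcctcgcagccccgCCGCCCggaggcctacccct
Rbbp4: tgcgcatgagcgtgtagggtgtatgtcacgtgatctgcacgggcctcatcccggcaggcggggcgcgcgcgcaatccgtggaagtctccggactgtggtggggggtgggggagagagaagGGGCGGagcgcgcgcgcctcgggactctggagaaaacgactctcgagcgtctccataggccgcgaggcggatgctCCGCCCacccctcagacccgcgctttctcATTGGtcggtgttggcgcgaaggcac
Rbbp7: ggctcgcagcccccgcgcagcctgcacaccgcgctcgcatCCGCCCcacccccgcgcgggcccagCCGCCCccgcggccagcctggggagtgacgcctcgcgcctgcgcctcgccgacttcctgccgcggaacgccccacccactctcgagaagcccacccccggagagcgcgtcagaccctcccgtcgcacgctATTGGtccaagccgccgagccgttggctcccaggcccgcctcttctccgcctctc

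A GC box was found in 8 of the 8 matched windows and in 32.7% of 32851 promoter windows of this length. A CCAAT box was found in 4 of the 8 (*Mbd3*, *Rbbp4*, *Rbbp7* and *Gatad2b*) and in 33.8% of all windows, with 3 copies upstream of *Mbd3* and 5 upstream of *Gatad2b*. A TATA box (TATAAA or TTTATA) was found only upstream of *Mbd3* among the 8, against 12.4% of all windows. The windows of *Rbbp7* and *Rbbp4* held 34 and 30 CpG dinucleotides, that of *Hdac2* 27, and those of *Mbd3* and *Chd4* 14 and 12, where the median of all windows is 6. The matched windows not shown held 39 (*Mta1*), 24 (*Mta2*) and 13 (*Gatad2b*). A match describes letters only, and binding was not analysed here.

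The libraries held 78172698 (shLuc) and 72702698 (shKdm5b) mapped reads. *Kdm5b* itself had 51378 reads (104 RPKM) in the shLuc library and 1377 reads (3.01 RPKM) in the shKdm5b library. RPKM is the number of reads per kilobase of transcript scaled to the number of mapped reads, and log2 ratios (shKdm5b over shLuc) were computed with 0.1 added to each RPKM. Of 11 ES cell markers, 11 were above 1 RPKM, with summed levels of 3164 RPKM (shLuc) and 3245 RPKM (shKdm5b), but members went both ways: *Pou5f1* was at 619 and 182 RPKM and *Esrrb* at 80.5 and 41.2 RPKM, while *Dppa5a* was at 1096 and 1651 RPKM. Of 10 fibroblast markers only *Thy1* was above 1 RPKM, and the list summed to 6.15 and 6.62 RPKM, with *Postn* at 3 and 0 reads. Endoderm markers summed to 7.39 and 1.31 RPKM, mesoderm markers to 2.81 and 4.60 RPKM, and neural markers to 41.6 and 21.6 RPKM. The mesoderm sum was mostly *Eomes* (2.45 and 4.05 RPKM), the only gene of that list above 1 RPKM. *T* had 6 and 47 reads, whereas *Mixl1* (50 and 35 reads) and *Mesp1* (4 and 2 reads) had values on the other side. The neural sum was mostly *Tubb3* (36.4 and 14.03 RPKM), whereas *Nes* (1.78 and 3.24 RPKM), *Sox1* (1.41 and 2.12 RPKM) and *Pax6* (2.01 and 2.18 RPKM) had values on the other side. Of the macrophage list, *Emr1* was at 0 reads in both libraries, *Csf1r* had 1 and 2 reads and *Ptprc* 0 and 6 reads, while *Cd68* (3.73 and 22.4 RPKM, log2 ratio 2.55) and *Srgn* (13.5 and 1.09 RPKM, log2 ratio -3.52), which other cells also express, differed in opposite directions and made up nearly all of its 17.3 and 23.7 RPKM. The part of these cell types in the NuRD values was not tested, and in bulk RNA fewer cells of a type and less RNA per cell cannot be told apart.

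All 10 members lay above 1 RPKM in both libraries, from 15.1 to 141 RPKM, with 2253 to 37960 reads each. In shKdm5b ES cells *Chd4*, *Mbd3*, *Hdac1* and *Mta2* were more than 1.5-fold lower and *Hdac2* and *Rbbp7* more than 1.5-fold higher, while *Rbbp4*, *Mta1*, *Mta3* and *Gatad2b* stayed within 1.5-fold. These 6 of 10 members stand beside 48.3% of all genes above 1 RPKM in at least 1 library that differed this much (16.3% higher and 32% lower). The summed level of the members was 576 RPKM in shLuc and 540 RPKM in shKdm5b ES cells.

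In the shLuc library *Rbbp4* had the highest level of the members (101 RPKM), followed by *Mbd3* (84.3), *Chd4* (75.6), *Rbbp7* (75.1), *Mta3* (53.4), *Hdac2* (52.4), *Mta1* (47.0), *Hdac1* (36.5), *Mta2* (35.4) and *Gatad2b* (15.1). The 95% Poisson intervals overlapped for *Chd4* and *Rbbp7*, for *Mta3* and *Hdac2*, and for *Hdac1* and *Mta2*, so the order within these pairs is not resolved by the reads. In the shKdm5b library the order was *Rbbp7* (141 RPKM), *Hdac2* (88.1), *Rbbp4* (74.4), *Mta3* (62.9), *Mta1* (44.4), *Mbd3* (35.2), *Chd4* (33.6), *Hdac1* (22.4), *Mta2* (21.9) and *Gatad2b* (16.4), with overlap only for *Hdac1* and *Mta2*. *Mbd3* and *Chd4* thus were 2 and 3 in order of RPKM in shLuc and 6 and 7 in shKdm5b. The intervals cover counting error only. Levels of different genes also depend on reads across splice junctions, which were not counted. For some members they depend on sequence shared with other genes. The order of the genes themselves is thus uncertain beyond these overlaps. The members were among the more abundant transcripts: *Rbbp4* exceeded 96.2% of the 11804 genes above 1 RPKM in the shLuc library, and *Gatad2b*, the lowest member, exceeded 65.5%.

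**Figure D1:**
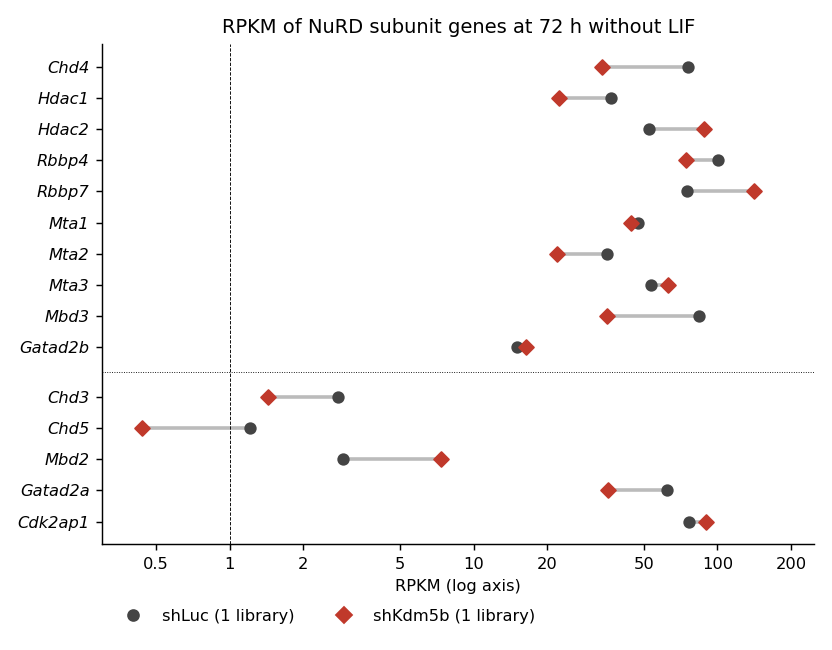
RPKM (log axis) of the 10 members, above the dotted line, and of 5 other NuRD subunit genes, in the shLuc library (circles) and the shKdm5b library (diamonds), with a dashed line at 1 RPKM. *Chd4* and *Mbd3* lay at 75.6 and 84.3 RPKM in shLuc and at 33.6 and 35.2 RPKM in shKdm5b, whereas *Rbbp7* went from 75.1 to 141 RPKM.

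*Chd4*, the remodelling motor, lies on chromosome 6 from 125095981 to 125130591 (GENCODE M21, GRCm38) and has 39 exons in the matched transcript. It had 37960 reads (75.6 RPKM) in the shLuc library and 15692 reads (33.6 RPKM) in the shKdm5b library, or 44.4% of the shLuc level. Its log2 ratio was -1.17, with a 95% Clopper-Pearson interval of -1.20 to -1.14 that covers counting error only. The related helicase genes were far lower per length. *Chd3* had 2.78 and 1.44 RPKM (log2 ratio -0.90), and *Chd5*, known from neurons, had 1.22 and 0.435 RPKM (log2 ratio -1.30). These 3 helicase genes were thus lower in shKdm5b ES cells. *Chd3* made up 3.50% and *Chd5* 1.53% of their summed RPKM in shLuc, and 4.06% and 1.23% in shKdm5b, the rest being *Chd4*. After subtraction of the GC curve described further on, *Chd3* was at -0.26 and *Chd5* at -0.57, both within 1.5-fold, and with length also corrected *Chd3* was at -0.01.

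The deacetylase paralogs went in opposite directions. *Hdac1* (chromosome 4, 129516104 to 129542713) had 5617 reads (36.5 RPKM) in the shLuc library and 3208 reads (22.4 RPKM) in the shKdm5b library, giving a log2 ratio of -0.70 (-0.77 to -0.64). *Hdac2* (chromosome 10, 36974544 to 37001889) had 8216 reads (52.4 RPKM) and 12836 reads (88.1 RPKM), a log2 ratio of 0.75 (0.71 to 0.79). The summed level of the pair was 88.9 RPKM in shLuc and 110 RPKM in shKdm5b. The level of *Hdac1* is uncertain, because 58.7% of the 50-base words of its transcript also occur in GENCODE transcripts of other genes, mainly an *Hdac1* pseudogene, and how reads with several genomic positions were treated in the RNA libraries is not given in the sources used here. For *Hdac2* this share was 0%.

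The histone-binding paralogs showed the same kind of divergence. *Rbbp4* (chromosome 4, 129307100 to 129335370) had 34758 reads (101 RPKM) in the shLuc library and 23844 reads (74.4 RPKM) in the shKdm5b library, giving a log2 ratio of -0.44 (-0.46 to -0.42), within 1.5-fold. *Rbbp7* (chromosome X, 162760402 to 162779092) had 13336 reads (75.1 RPKM) and 23262 reads (141 RPKM), a log2 ratio of 0.91 (0.88 to 0.94), the largest value above 0 among the members. *Rbbp4* was thus above *Rbbp7* in shLuc ES cells and below it in shKdm5b ES cells. Exons of genes on the opposite strand cover 35.8% of the *Rbbp4* transcript and 7.75% of the *Rbbp7* transcript in GENCODE, and no source used here states that counting used strand. Of the opposite-strand genes, *Sync*, at *Rbbp4*, had 173 and 121 reads, and *Txlng*, at *Rbbp7*, had 4785 and 4793 reads. *Gm26722*, also at *Rbbp4*, was not examined. Of the 50-base words, 33.8% for *Rbbp4* and 15.1% for *Rbbp7* also occur in transcripts of other genes, in either orientation.

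Of the scaffold genes, *Mta2* was lower and the others differed little in the values as deposited. *Mta2* (chromosome 19, 8941875 to 8952303) had 8545 reads (35.4 RPKM) in the shLuc library and 4912 reads (21.9 RPKM) in the shKdm5b library, giving a log2 ratio of -0.69 (-0.75 to -0.64). *Mta1* (chromosome 12, 113098278 to 113137206) had 10202 reads (47.0 RPKM) and 8952 reads (44.4 RPKM), a log2 ratio of -0.08 (-0.13 to -0.04) that becomes 0.09 when the median log2 ratio of all genes is set to 0. *Mta3* (chromosome 17, 83706163 to 83821516) had 7199 reads (53.4 RPKM) and 7894 reads (62.9 RPKM), a log2 ratio of 0.24 (0.19 to 0.28). *Mta3* is the only member with several RefSeq entries, and its 4 entries gave log2 ratios from 0.17 to 0.24. The MTA genes together had 136 RPKM in shLuc and 129 RPKM in shKdm5b. With the GC curve described further on subtracted, *Mta2* was at -0.23, within 1.5-fold, while *Mta1* (0.63) and *Mta3* (0.79) were past it.

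*Mbd3*, the subunit that defines MBD3-NuRD, showed the lowest log2 ratio of the members. It lies on chromosome 10 from 80392539 to 80399550, and had 10477 reads (84.3 RPKM) in the shLuc library and 4070 reads (35.2 RPKM) in the shKdm5b library, or 41.8% of the shLuc level (log2 ratio -1.26, -1.31 to -1.21). *Mbd2*, whose protein binds methylated DNA and takes the place of MBD3, was far lower but went the other way. It had 423 reads (2.92 RPKM) in shLuc and 992 reads (7.38 RPKM) in shKdm5b, a log2 ratio of 1.31 (1.17 to 1.50). *Mbd3* remained the more abundant of the pair in both libraries.

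The bridging subunits had unequal values. *Gatad2b* (chromosome 3, 90293178 to 90363407) had 2253 reads (15.1 RPKM) in the shLuc library and 2271 reads (16.4 RPKM) in the shKdm5b library, giving a log2 ratio of 0.12 (0.03 to 0.20). Its paralog *Gatad2a*, which is no member, had 62.2 and 35.6 RPKM, a log2 ratio of -0.80 (-0.84 to -0.77) that was -0.09 after subtraction of the GC curve. The transcript behind the GC content of *Gatad2a* has 3363 bases, against 5062 in the counted entry. Its corrected value is thus uncertain. *Cdk2ap1*, a small subunit gene, had 76.6 and 89.4 RPKM (log2 ratio 0.22), but 88.9% of its 50-base words occur in transcripts of other genes, so its value is uncertain. Of the 5 NuRD subunit genes outside the members, 3 were more than 1.5-fold lower, *Mbd2* was higher, and *Cdk2ap1* stayed within 1.5-fold, beside the 48.3% of all genes past these thresholds (32% lower). After the GC correction 2 were higher and 0 lower, *Mbd2* at 1.98 and *Cdk2ap1* at 0.92, beside 36.4% of all genes past 1.5-fold in either direction. The share of all genes by direction was not computed for this correction.

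These differences have to be read against a large background. Of the 11804 genes above 1 RPKM in at least 1 library, 5702 differed by more than 1.5-fold, 1921 being higher and 3781 lower in shKdm5b ES cells. The median log2 ratio was -0.26 over the members and -0.21 over all genes; the 10th and 90th percentiles of all genes were -1.25 and 0.82. The share of members called is thus near that of all genes. Setting the median of genes above 1 RPKM in both libraries to 0, a shift of -0.17, left 4 members past 1.5-fold (2 higher and 2 lower), since *Hdac1* (-0.53) and *Mta2* (-0.52) then lay within it. The share of all genes past 1.5-fold under this scaling was not computed. When an edgeR exact test on the reads was added at an assumed dispersion of 0.04, 2.41% of all genes and 0 members passed an FDR of 0.001, with *Rbbp7* having the lowest adjusted p of the members (0.0468). At a dispersion of 0 the test removed no member, so the count there was that of the fold threshold alone. The share of all genes was not computed for this setting. The fold threshold was applied to the ratios as deposited. After the normalization of edgeR (TMM), the log2 ratios of *Hdac1* (-0.48) and *Mta2* (-0.47) lay within 1.5-fold. The exact test compares these libraries and not the conditions.

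The log2 ratio also went with the GC content of transcripts, and the members follow this in part. Over 11535 genes the Spearman correlation of the log2 ratio with GC content was -0.53, and over the 10 members it was -0.42, both given as descriptions, since all points share the same pair of libraries. *Hdac2* (44.4% GC) and *Rbbp7* (44.7%) have low GC content, and *Mbd3* (62.9%) has the highest of the members. *Rbbp4*, with 43.8% GC, has the lowest GC content and yet a log2 ratio below 0. Among 975 genes within 1 percentage point of its GC content the median log2 ratio was 0.25, and 10.8% of them lay below *Rbbp4*. For *Chd4*, 14.2% of 1243 such genes lay below its value, and for *Mbd3* 34.8% of 164. For *Rbbp7* 87.7% of 1012 such genes lay below, for *Mta3* 86.7% of 1215, for *Hdac2* 81.3% of 1005 and for *Mta1* 80.6% of 1054. *Mbd3* was thus closer to the middle of genes of like GC content than *Chd4* or *Rbbp4*.

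**Figure D2:**
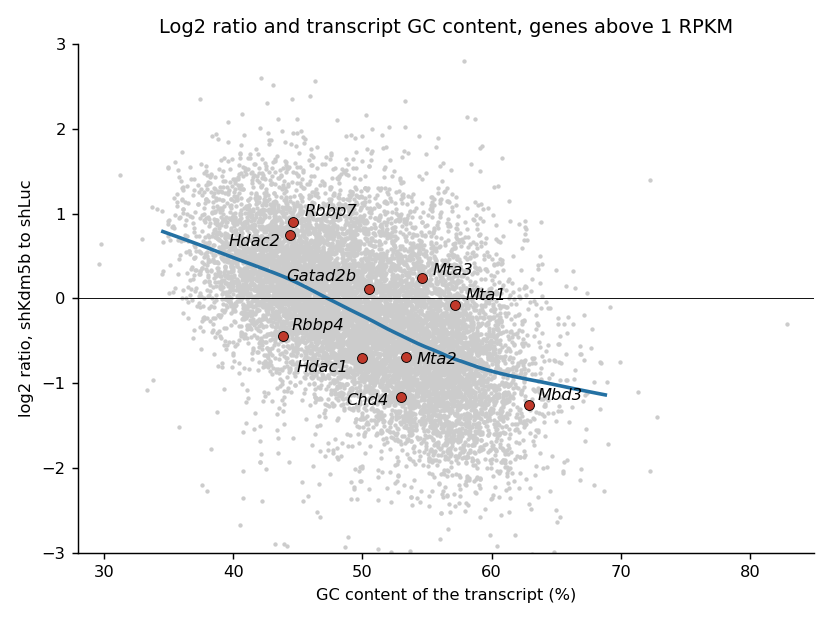
Log2 ratio of shKdm5b to shLuc (vertical axis) and GC content of the transcript in percent (horizontal axis) for genes above 1 RPKM (grey), with the 10 members in red and a lowess curve in blue. 48 genes lie outside the vertical range. *Chd4*, *Hdac1*, *Rbbp4*, *Mbd3* and *Mta2* lie below the curve, and *Rbbp7*, *Hdac2*, *Mta3*, *Mta1* and *Gatad2b* lie above it.

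After the GC curve was subtracted, 36.4% of 11535 genes and 5 of the 10 members differed by more than 1.5-fold. *Chd4* (log2 ratio -0.73) and *Rbbp4* (-0.70) were lower, and *Mta3* (0.79), *Rbbp7* (0.70) and *Mta1* (0.63) were higher. *Mbd3* (-0.30), *Mta2* (-0.23), *Hdac1* (-0.50) and *Hdac2* (0.52) then lay within 1.5-fold. After a further correction for transcript length, 31.5% of genes and 3 members passed, *Rbbp7* (0.70), *Mta3* (0.69) and *Mta1* (0.69), and *Chd4* was at -0.51. Over the 7 alternatives run for each single member, 9 of the 10 kept the sign of their log2 ratio, and *Mta1* did not. Part of this count was fixed beforehand. Another pseudocount cannot change a sign, and summing the entries of a symbol can alter only *Mta3*.

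**Figure D3:**
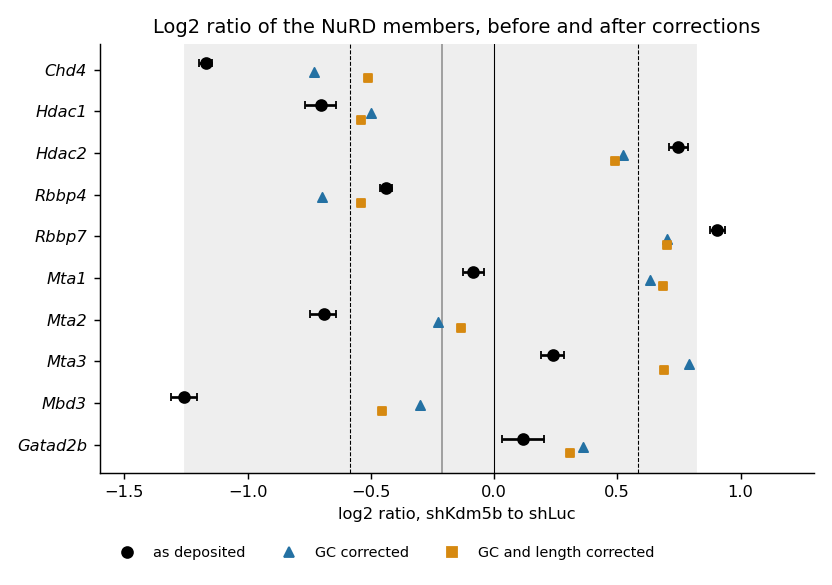
Log2 ratio (shKdm5b over shLuc) for each member as deposited (black, bars are 95% counting intervals), with the GC curve subtracted (triangles) and with GC and length curves subtracted (squares). Dashed lines mark 1.5-fold, the grey line the median of all genes (-0.21) and the grey band the range from the 10th to the 90th percentile of all genes (-1.25 to 0.82). *Rbbp7*, at 0.91, 0.70 and 0.70, is past 1.5-fold in all of these.

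Ratios between paralogs within a library do not depend on how the libraries are scaled to each other. *Hdac2* made up 59.0% of the summed RPKM of *Hdac1* and *Hdac2* in shLuc ES cells and 79.7% in shKdm5b ES cells. The ratio of *Hdac2* to *Hdac1* was 1.44 and 3.94, a change of 1.45 on the log2 scale (95% normal-approximation interval from the reads 1.38 to 1.53). *Rbbp7* made up 42.7% of its pair in shLuc and 65.4% in shKdm5b, with ratios to *Rbbp4* of 0.74 and 1.89 and a change of 1.35 (1.31 to 1.39). These transcripts differ little in GC content (44.7% and 43.8%), and the change was 1.40 after the GC correction. For *Hdac2* and *Hdac1*, which are 5.56 percentage points apart in GC content, the change was 1.02 after it.

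In the MBD pair, *Mbd2* made up 3.35% in shLuc and 17.3% in shKdm5b, a change of 2.59 (2.42 to 2.77) in the log2 ratio of *Mbd2* to *Mbd3*, and 2.28 after the GC correction. The share of *Mta2* among the MTA genes was 26.1% and 16.9%, that of *Mta3* 39.3% and 48.7%, and that of *Mta1* 34.6% and 34.4%. *Gatad2b* made up 19.6% of the GATAD2 pair in shLuc and 31.5% in shKdm5b, a change of 0.92 (0.83 to 1.01) that was 0.45 with the GC curve subtracted and 0.21 with the length curve subtracted as well. Both corrected values rest on the uncertain GC content of *Gatad2a*. The summed RPKM of the families differed as well: it was higher in shKdm5b for the HDAC pair (log2 ratio 0.31) and the RBBP pair (0.29), and lower for the MBD pair (-1.03), *Chd4*, *Chd3* and *Chd5* together (-1.17) and the GATAD2 pair (-0.57). For the MTA genes it was -0.07, smaller in size than the shift of -0.17 between scalings.

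**Figure D4:**
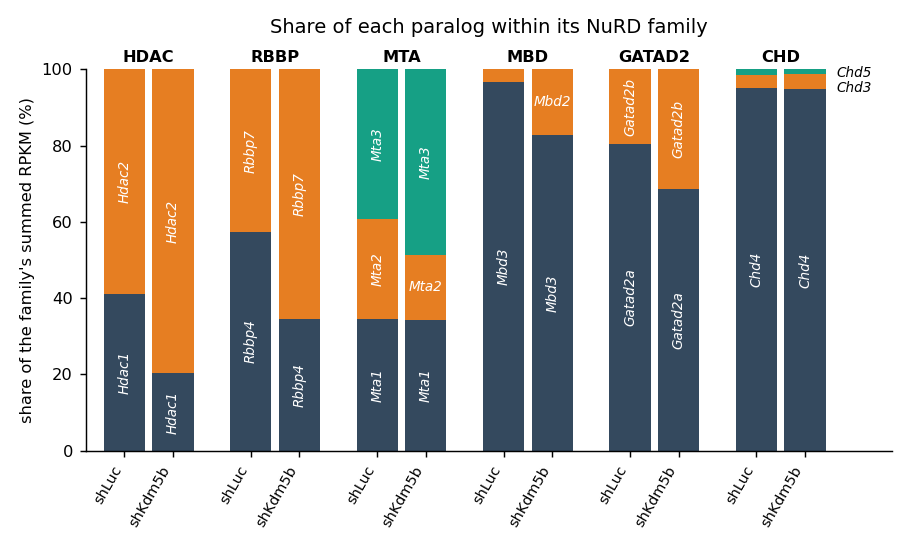
Share of each paralog in the summed RPKM of its family (percent, bars start at 0) in the shLuc and shKdm5b libraries. *Hdac2* went from 59.0% to 79.7%, *Rbbp7* from 42.7% to 65.4% and *Mbd2* (top segment of the MBD bars) from 3.35% to 17.3%, while *Chd3* held 3.50% and 4.06% of the CHD sum. The shares of the HDAC pair rest on the uncertain level of *Hdac1*.

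Genes of proteins that bind NuRD were described next, from a list of 14, of which 11 were above 1 RPKM. Of these, 2 passed the thresholds, beside 48.3% of all genes: *Zfp219*, a zinc finger gene, was lower (33.0 and 12.4 RPKM, log2 ratio -1.41), and *Bcl11a*, a zinc finger repressor, was higher (3.51 and 6.04 RPKM, log2 ratio 0.77). *Kdm1a*, which encodes the demethylase LSD1, had the highest level of the list (107 and 95.5 RPKM, log2 ratio -0.17). The median log2 ratio of the list was 0.04. After the GC correction *Zfp219*, with 62.2% GC, was at -0.47, and 5 of the 11 passed, all higher, with a median of 0.51, beside 36.4% of all genes.

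HDAC1 and HDAC2 also work in the SIN3, CoREST and MiDAC complexes, and RBBP4 and RBBP7 in the chromatin assembly factor CAF-1, Polycomb repressive complex 2, NURF and the HAT1 acetyltransferase. Together with other class I deacetylases and NCoR, these lists hold 43 genes, of which 41 were above 1 RPKM. Of these 41, 15 differed by more than 1.5-fold, 5 higher and 10 lower, and their median log2 ratio was -0.22, beside the 48.3% and -0.21 of all genes. After the GC correction 10 passed, 5 higher and 5 lower, beside 36.4% of all genes.

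In the SIN3 list 5 of 14 genes passed, 2 higher and 3 lower, with *Sap30* (44.6 and 80.9 RPKM, log2 ratio 0.86), *Brms1* (12.1 and 5.19 RPKM, -1.21) and *Sin3b* (52.2 and 31.5 RPKM, -0.73) the largest in size. After the GC correction 2 were higher (*Sap30* and *Sap30l*) and 0 lower, with *Brms1* at -0.48 and *Sin3b* at -0.13. With length also corrected 2 were higher and 2 lower, *Brms1* at -0.75 and *Sin3b* at -0.60. For this and the further lists, the share of all genes was 48.3% as deposited. It was 36.4% after the GC correction and 31.5% with length also corrected. *Fam60a*, the SIN3 subunit gene with the highest level, was at 125 and 139 RPKM. In the CoREST list 3 of 10 passed, and all 3 were lower: *Hmg20b* (14.1 and 6.03 RPKM, -1.22), *Zmym3* (7.65 and 3.48 RPKM, -1.11) and *Gse1* (23.3 and 12.5 RPKM, -0.90). Of these only *Zmym3* (-0.66) passed after the GC correction, with *Hmg20b* at -0.31 and *Gse1* at -0.04. Of the 4 MiDAC genes 3 were found under the symbols listed, and *Dnttip1* was lower (7.80 and 4.75 RPKM, -0.70, and -0.13 after the GC correction).

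Of the 9 genes of other RBBP4 and RBBP7 complexes 5 passed, 3 higher and 2 lower, beside 48.3% of all genes. *Hat1*, which encodes the acetyltransferase that works with RBBP7 on new histones, had 135 and 302 RPKM (log2 ratio 1.16, interval 1.14 to 1.19, and 0.75 after the GC correction). Both large subunits of CAF-1, which also contains RBBP4, were lower, *Chaf1a* with 30.4 and 12.4 RPKM (-1.29, and -0.70 after the GC correction) and *Chaf1b* with 42.2 and 25.2 RPKM (-0.74, and within 1.5-fold at -0.26 after the GC correction). The other 2 that passed, named after their values were seen, were higher: *Eed* of Polycomb repressive complex 2 (log2 ratio 0.70, and 0.73 after the GC correction) and *Smarca5*, an ISWI remodeller gene (0.73, and 0.29). Of the same Polycomb complex, *Suz12* went the other way (-0.46, and past 1.5-fold at -0.84 after the GC correction), and *Ezh2* stayed within 1.5-fold (0.57, and 0.33). After the GC correction 5 genes of this list passed, 2 higher and 3 lower, beside 36.4% of all genes. Among the other class I deacetylase and NCoR genes 1 of 6 passed: *Hdac3* was lower (25.5 and 14.4 RPKM, -0.82, and -0.60 after the GC correction), and *Ncor1*, with the highest level, was at 31.2 and 26.1 RPKM (-0.25).

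**Figure D5:**
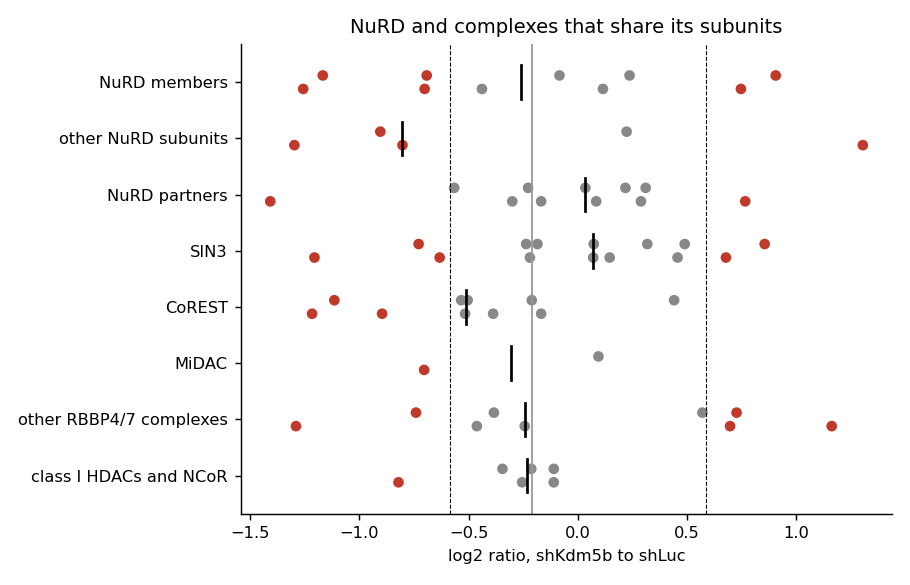
Log2 ratio of shKdm5b to shLuc for genes above 1 RPKM in each list, with genes past 1.5-fold in red, the median of the list as a black bar, dashed lines at 1.5-fold and a grey line at the median of all genes (-0.21). The members spread from -1.26 to 0.91 around a median of -0.26.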

How the data were processed

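Polyadenylated RNA was sequenced as 1 library for each of the shLuc and shKdm5b ES cells after 72 h of LIF withdrawal. Per the submitters' processing notes, CASAVA 1.0, Bowtie 0.12.7 and the mm8 build were used. The authors deposited a whole-number read count, a length and an RPKM value for each RefSeq entry, and the mapped reads. Every deposited read lies in an unbroken 50-base interval, so reads across splice junctions are not counted and levels of genes with many short exons are understated. The number of reads equals the total behind the RPKM. The counting program is not given in the sources used here.

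Where a symbol had several entries, that of highest mean RPKM was used. Genes were called with a fold change above 1.5 on the log2(RPKM + 0.1) scale, which understates changes of low genes, and RPKM above 1 in at least 1 library. The quasi-likelihood test needs replicates, so edgeR 4.0.16 (R 4.3.3) was used only as an alternative, by its exact test after TMM normalization. GC content, coordinates and shared 50-base words came from GENCODE M21 (GRCm38) for 97.7% of genes above 1 RPKM; these coordinates describe the genes, not the alignment. GC and length curves were lowess fits (fraction 0.3, statsmodels 0.14.6). Steps were tested on simulated data. Python 3.11.15 and SciPy 1.17.1 were used. Intervals at 95% cover counting error only. All members, the other subunits and *Kdm5b* were named, and, of each further list, the gene of highest mean RPKM and up to 3 past the thresholds with the largest size of log2 ratio. Members, lists, thresholds and corrections were chosen with earlier results of these data known.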

Additional observations from a re-analysis of the deposited data

How the results depend on the processing

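No paired analysis was possible because both conditions were sequenced as 1 library each, and neither could be left out. Under the other pseudocounts (1 and 0.01), the sum of entries, the RPKM alternatives and the edgeR exact test at a dispersion of 0, 6 members passed. No RPKM alternative could remove a member, since all lay at 15.1 RPKM or above. Summing entries could alter only *Mta3*, the only member with several. A dispersion of 0 covers counting error only, and there the test removed no member past the fold threshold. The count of members was 2 (0 higher) with a fold change above 2, 3 (all higher) with GC and length curves subtracted, and 0 at a dispersion of 0.04. The other NuRD subunits and partners, 6 as reported, gave 2 with RPKM above 11, 3 with a fold change above 2 and 0 at 0.04, and after the GC correction 7, all higher, against 2 higher and 4 lower. The 43 genes of other complexes and deacetylases, 15 called as reported, gave 5 with a fold change above 2 and 0 at 0.04, and 9 higher against 6 lower after median scaling. The share of all genes was computed only for the main call, both corrections and the dispersion of 0.04. The other counts thus have no background beside them. The median log2 ratio of the members, -0.26, was -0.092 after median scaling, -0.19 after scaling to the 75th percentile, and turned to 0.068 under the GC correction and 0.088 with length added. Both corrections centre the log2 ratio of all genes near 0.

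By construction, the changes between paralogs were the same under either scaling. Under GC alone, and under GC with length, they were 1.02 and 1.03 for *Hdac2* to *Hdac1*, 1.40 and 1.24 for *Rbbp7* to *Rbbp4*, 2.28 and 2.37 for *Mbd2* to *Mbd3*, 0.86 and 0.82 for *Mta1* to *Mta2* (0.61 without), 1.02 and 0.82 for *Mta3* to *Mta2* (0.93 without), 0.16 and 0.0022 for *Mta3* to *Mta1* (0.32 without), 0.45 and 0.21 for *Gatad2b* to *Gatad2a*, and 0.48 and 0.50 for *Chd3* to *Chd4* (0.22 without). That of *Chd5* to *Chd4*, -0.31, turned to 0.16 and 0.25, and rests on 901 and 300 reads of *Chd5*. That of *Hdac2* to *Hdac1* rests on the uncertain level of *Hdac1*. Why the corrections moved these values was not tested.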
